A study of Mus musculus with 6 samples.

Results

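Growing axons are built from a small set of abundant messages, and 10 of them were followed here in mouse dorsal root ganglia: the membrane-bound growth-associated proteins Gap43, Basp1 and Marcks, the stathmins Stmn2, Stmn3 and Stmn4, and the tubulins Tubb6, Tubb2b, Tubb3 and Tuba1a. They were chosen by gene name, as growth-associated proteins, stathmins and tubulins of growing axons, and the table of 54532 genes held each name once. All 10 passed the filter on low counts, which left 16032 genes for testing. Bulk RNA sequencing compared ganglia of 3 Ash1l+/- libraries with ganglia of 3 wild-type (WT) libraries from littermates. Ash1l encodes a histone methyltransferase, and the Ash1l+/- genotype carries 1 altered copy. The sources used here do not give the structure of the allele, the cells in which it acts, the strain, age and sex of the mice, or any treatment. Whether the 6 libraries come from 6 animals is not stated either, so a p-value here covers the spread between libraries, part of which may be technical.

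The growth cone is the motile tip of an extending axon. Its membrane carries GAP-43, BASP1 (also called CAP-23) and MARCKS, acidic proteins that are tethered to the inner leaflet and act on phosphoinositides and the actin network beneath it. Behind it, the axon shaft is a bundle of microtubules made of alpha- and beta-tubulin. Stathmins bind tubulin dimers and favour microtubule disassembly, and the neuronal stathmins 2, 3 and 4 are anchored to membranes. In sensory neurons many of these genes are active while axons first grow, and several of them rise again after a peripheral nerve is cut, which has made Gap43 and Stmn2 common markers of regenerating axons.

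The tubulin messages resemble each other so closely that their reads can be hard to assign. The last 60 coding bases of Tubb2b and Tubb2a show how little this pair of messages differs. These bases encode the acidic tail, which differs between many tubulin isotypes but is the same in Tubb2b and Tubb2a. They are printed from GENCODE M21 transcripts (GRCm38) in the coding direction, stop codon included, and capitals mark the bases at which Tubb2b and Tubb2a differ. Tubb3 is printed for contrast, without capitals.
Tubb2b: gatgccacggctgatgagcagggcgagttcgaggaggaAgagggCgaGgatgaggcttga
Tubb2a: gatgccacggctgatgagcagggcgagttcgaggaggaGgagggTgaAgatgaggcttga
Tubb3: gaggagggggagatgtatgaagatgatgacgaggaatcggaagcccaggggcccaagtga
Over this stretch Tubb2b and Tubb2a, both on chromosome 13, differed at 3 bases, none of which changes the encoded amino acid. Over the whole coding sequence of 1338 bases, Tubb2b and Tubb2a were 96.5% identical. Tuba1a and Tuba1b, both on chromosome 15 and each with 1356 coding bases, were 98.3% identical.

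How far this reaches was measured by cutting each member's longest GENCODE M21 transcript into windows and searching them, on both strands, in the transcripts of all other genes. Of the 50-base windows of Tuba1a, 75.5% also occurred in another gene, and of its 100-base windows 65.8% did. For Tubb2b the shares were 39.3% and 27.7%. Stmn2 shared 1.49% of its 50-base windows and Marcks 0.175%, and neither shared a 100-base window. Gap43, Basp1, Stmn3, Stmn4, Tubb6 and Tubb3 shared no window of either length. Only exact matches were sought, and shorter transcripts of the members and sequence outside annotated transcripts were not searched. The sources used here name neither the read length nor the treatment of reads with several matches, so the split of reads between Tuba1a, Tuba1b and Tuba1c and between Tubb2b and Tubb2a is uncertain. The named library kit does not mark strand. Gap43, Tubb3 and Tuba1a each overlap another annotated gene on the same strand, and the highest count of such a gene in a library was 94. How reads in these overlaps were treated is not given.

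**Figure D1:**
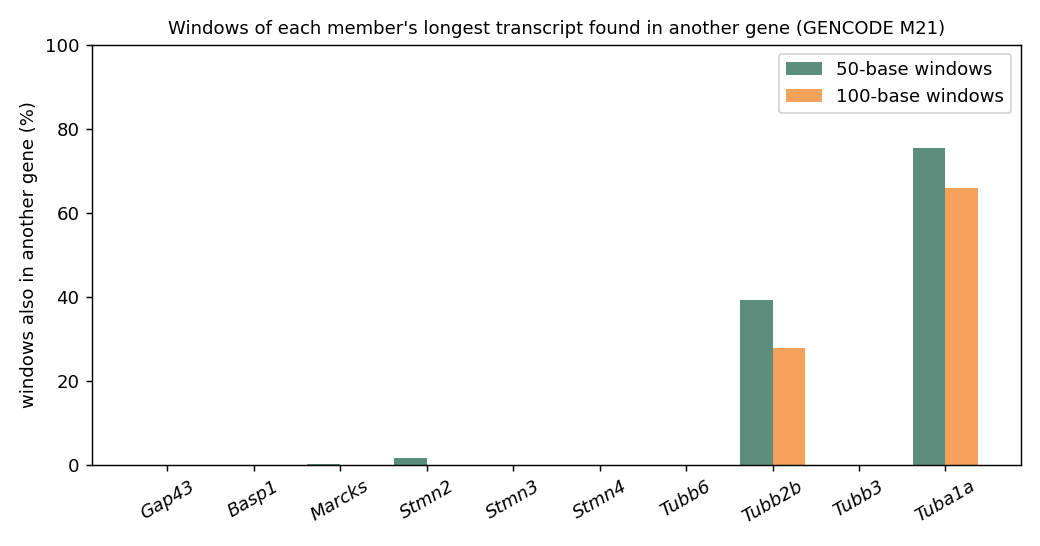
Share (%) of 50-base and 100-base windows of each member's longest transcript that also occur in a transcript of another gene, on either strand, in GENCODE M21. Tuba1a (75.5% and 65.8%) and Tubb2b (39.3% and 27.7%) stand out, and the other 8 members lie at 1.49% or less.

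Levels are given in CPM, read counts scaled to library size after a TMM correction for library composition. The 6 libraries held between 17209294 and 20545722 counted reads. WT replicate 2 stood apart: Pearson's r of its log2 CPM with each other library lay between 0.86 and 0.89 across genes, against 0.985 or more among those 5 (genes are not independent replicates). The 8 sensory neuron, 5 satellite glial and 5 myelinating Schwann cell markers looked up were all detected. The sensory neuron markers summed to 7831, 7731 and 8008 CPM in Ash1l+/- and to 8398, 22132 and 8358 CPM in WT. Satellite glial markers summed to 4239, 3491 and 3623 CPM in Ash1l+/- and to 4029, 12118 and 3908 CPM in WT. Of the other lists, erythrocyte and skeletal muscle markers differed more, and the rest differed less or were lower in WT replicate 2. In WT, myelinating Schwann cell markers summed to 4848, 5778 and 4676.5 CPM and vascular cell markers to 269.8, 309 and 294 CPM. Fibroblast markers summed to 674, 496 and 638 CPM in WT, and central nervous system glia markers to 19.7, 9.86 and 24.4 CPM. Erythrocyte markers summed to 31.5, 93.6 and 52.3 CPM in Ash1l+/- and to 78.5, 628 and 101 CPM in WT, and skeletal muscle markers to 30.8 CPM in WT replicate 2 and at most 2.80 CPM elsewhere. The part of these cell types in the results was not tested. Ash1l itself was at 66.5, 66.5 and 68.9 CPM in Ash1l+/- and at 60.9, 30.9 and 54.4 in WT, and with the structure of the allele unknown this level does not check the labels.

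The 2 genotypes were compared to ask whether the growth cone genes differ when 1 Ash1l copy is altered. With all 6 libraries, edgeR's quasi-likelihood test called 0 of the 10 members at an adjusted p of 0.05, against a background of 0% over all genes tested. Tuba1a was the 1 member of 10 with an unadjusted p below 0.05, a share near that over all genes (1702 of 16032). DESeq2 and limma-voom also called 0 members. With quality weights, which gave WT replicate 2 a weight of 0.0274, limma-voom called 3 members, against a background of 4179 of 16032 genes. Without WT replicate 2, 1 member rose (Stmn4), 2 fell (Stmn3 and Tuba1a) and 7 did not pass. These 3 of 10 are read against a background of 19.8% of the 16395 genes tested in those 5 libraries (9.39% higher and 10.4% lower). After trends along GC content and gene length were taken out of each of the 5 libraries, 4 members rose (Stmn4, Tubb6, Tubb3 and Gap43) and Tuba1a fell, against a background of 6.98% (2.6% higher and 4.38% lower). The same removal with all 6 libraries left 0 members called, against 0%. Stmn4 and Tuba1a were called in both fits of the 5 libraries. The median log2 fold change of the 10 members was -0.0060 with 6 libraries, -0.029 with 5, and 0.10 with 5 and the trends removed; over all genes tested it was 0.00 in each of these fits. In whole ganglia, fewer cells of a type and less RNA per cell cannot be told apart.

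**Figure D2:**
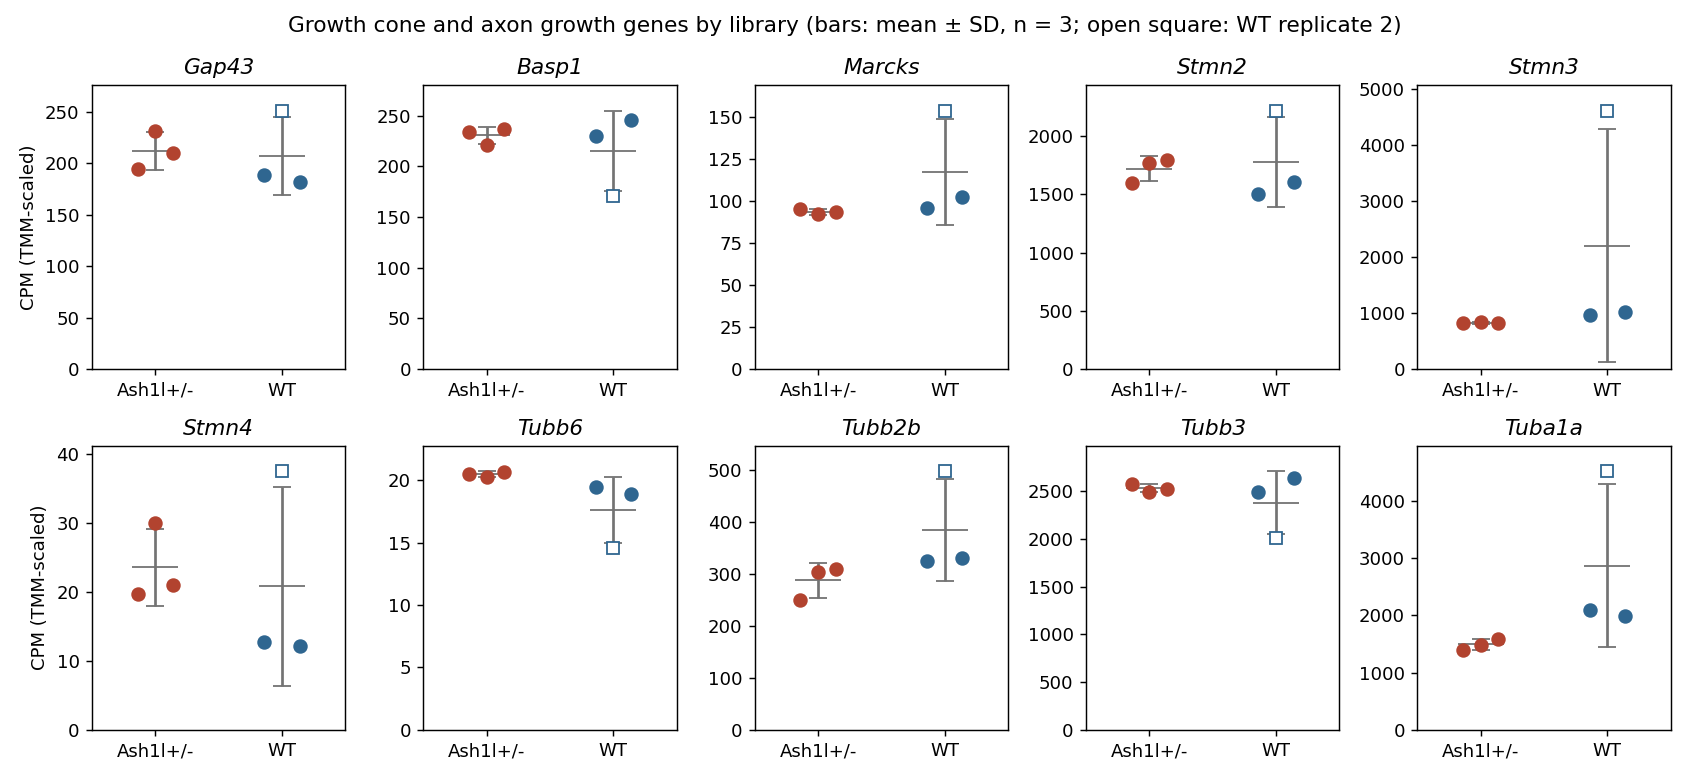
CPM of the 10 members in each library, with Ash1l+/- on the left and WT on the right of each panel, the mean and SD of 3 libraries as bars, and WT replicate 2 as an open square. WT replicate 2 is outside the range of the other 5 libraries for all 10 members, most visibly for Stmn3 (4604 CPM) and Tuba1a (4519 CPM).

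Libraries of the 2 genotypes did not overlap for 5 of the 10 members, with Tubb6 above and Marcks, Stmn3, Tubb2b and Tuba1a below WT, against a background of 38.5% of genes tested (19.3% above and 19.2% below). Without WT replicate 2 they did not overlap for 7, with Gap43, Stmn4 and Tubb6 above and the same 4 below, against a background of 49.2% (23.9% above and 25.3% below). For single genes, the smallest p that a two-sided exact permutation test of 3 libraries against 3 can reach is 0.1.

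Of the growth-associated proteins, Gap43 (chromosome 16, 42248442 to 42340651, minus strand, with all positions on GRCm38) encodes the founding protein of the group, a calmodulin-binding substrate of protein kinase C. Gap43 was at 195, 232 and 210.3 CPM in the Ash1l+/- libraries, in the order of their replicate numbers, and at 189, 251 and 182 CPM in the WT libraries. All Ash1l+/- libraries were above WT replicates 1 and 3 and below WT replicate 2, and the means were 212 ± 18.5 CPM in Ash1l+/- and 207 ± 38.1 CPM in WT (SD, n = 3). Its log2 fold change was 0.033 with 6 libraries (SE 0.18, adjusted p = 0.917 by edgeR, which gave all adjusted p-values here) and 0.20 with 5 (SE 0.08, adjusted p = 0.092). Removing the trends from the 5 libraries gave 0.24, which passed (SE 0.07, adjusted p = 0.0429). Among Ash1l+/- libraries, replicate 2 was highest and replicate 1 lowest, an order that Stmn4 shared.

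Basp1 (chromosome 15, 25363277 to 25413764, minus strand) encodes a functional relative of GAP-43 without its calmodulin-binding domain. It was at 234, 221 and 236 CPM in Ash1l+/- and at 230, 171 and 245 CPM in WT. WT replicate 2 was the lowest library, and the other 5 overlapped. Basp1 had a log2 fold change of 0.098 with 6 libraries (SE 0.18) and of -0.043 with 5 (SE 0.07), where 2 SE on either side ran from -0.19 to 0.10. It did not pass in any of the 4 fits plotted.

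Marcks (chromosome 10, 37133375 to 37138920, minus strand) encodes the actin-binding kinase substrate for which the family is named, which many cell types besides neurons make. It was at 95.3, 92.1 and 93.3 CPM in Ash1l+/- and at 96.0, 154 and 103 CPM in WT. The Ash1l+/- libraries were all below the WT libraries, by less than 1 CPM at the nearest point. Marcks had a log2 fold change of -0.33 with 6 libraries (SE 0.21, adjusted p = 0.422) and of -0.084 with 5 (SE 0.07, adjusted p = 0.464). The exact permutation p over 6 libraries was 0.1, and Marcks was not called in any of the 4 fits.

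**Figure D3:**
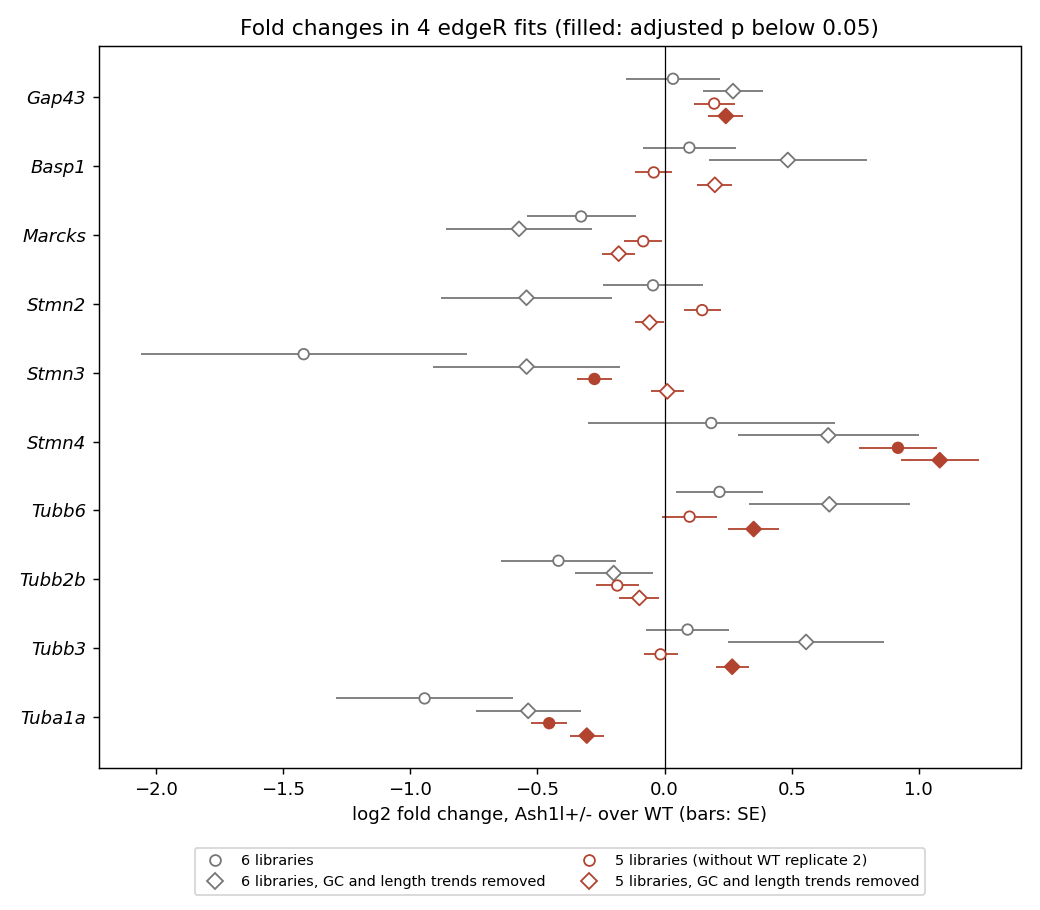
Log2 fold change of Ash1l+/- over WT (x axis) with its SE for the 10 members in 4 edgeR fits, with filled symbols where the adjusted p was below 0.05. Stmn4 lies to the right and Tuba1a to the left of 0 in all 4 fits, and Stmn3 moves from -1.42 with 6 libraries to 0.011 with 5 libraries and the trends removed.

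Among the stathmins, Stmn4 showed the largest rise of any member in the 5 libraries. It encodes RB3, the neuronal stathmin with splice forms of differing tubulin affinity, on chromosome 14 (66344296 to 66361680, plus strand). Its reads numbered 431, 558 and 376 in the Ash1l+/- libraries and 258, 501 and 234 in the WT libraries. Scaled, these were 19.7, 29.9 and 20.9 CPM in Ash1l+/- against 12.7, 37.4 and 12.1 CPM in WT. Each Ash1l+/- library lay above WT replicates 1 and 3, and WT replicate 2 lay above them all. The fold change was 1.89 in the 5 libraries (log2 0.92, SE 0.15, adjusted p = 6.03e-04) and 2.12 with the trends removed (log2 1.08, SE 0.15, adjusted p = 5.56e-04). With all 6 libraries it was 1.14 (log2 0.18, SE 0.49, adjusted p = 0.819), and without WT replicate 3 alone the log2 value was -0.078, without WT replicate 1 alone -0.063. Leaving out a further library from the 5 kept the call in all 5 fits, with log2 fold changes from 0.71 without Ash1l+/- replicate 2 to 1.03 without Ash1l+/- replicate 1.

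Beside these values stand those of Atf3 and Sprr1a, named with their values known; with 6 libraries neither passed (adjusted p = 0.385 and 0.512, edgeR), and with the 5 libraries both did (adjusted p = 4.92e-06 and 3.54e-06). Atf3, an injury-induced transcription factor, was at 20.1, 35.8 and 24.0 CPM in Ash1l+/- and at 6.96, 11.1 and 6.58 CPM in WT. Sprr1a, a small proline-rich protein of regenerating neurons, was at 6.23, 23.6 and 13.2 CPM in Ash1l+/- and at 0, 11.3 and 0.0518 CPM in WT. Ash1l+/- replicate 2 was the highest Ash1l+/- library in Gap43, Stmn4, Atf3 and Sprr1a, and WT replicate 2 the highest WT library. Both also held for Stmn3, which fell in the 5 libraries, although its Ash1l+/- libraries lay close together (813, 842 and 810.1 CPM). WT replicate 2 was above both other WT libraries in 7 members. Whether injury had a part in the result for Stmn4 was not tested.

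Stmn3, which encodes SCLIP, lies on chromosome 2 (181306459 to 181314500, minus strand). It was at 813, 842 and 810.1 CPM in Ash1l+/- and at 969, 4604 and 1023 CPM in WT. Both groups were tight apart from WT replicate 2, which held 4.62 times the level of the other WT libraries. In the 5 libraries Stmn3 fell to 0.826 of the WT level (log2 -0.28, SE 0.07, adjusted p = 0.00852). The log2 fold change was -1.42 with 6 libraries (SE 0.64, adjusted p = 0.385), and without WT replicates 2 and 3 the call was lost (log2 -0.24, adjusted p = 0.0638), where the 1 WT library left is taken to vary as Ash1l+/- does. The 5 libraries with the trends removed gave 0.011 (SE 0.07, adjusted p = 0.953), and 2 SE on either side ran from -0.12 to 0.14.

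Stmn2, which encodes SCG10, a growth cone protein that regenerating sensory axons carry, lies on chromosome 3 (8509360 to 8561606, plus strand). Stmn2 was at 1595, 1774 and 1796 CPM in Ash1l+/- and at 1503, 2219 and 1608 CPM in WT. The groups overlapped with and without WT replicate 2. Stmn2 had a log2 fold change of -0.045 with 6 libraries (SE 0.20), 0.15 with 5 (SE 0.07, adjusted p = 0.16) and -0.059 with 5 and the trends removed (SE 0.06), so its sign turned with the handling of the data. It passed in none of the 4 fits plotted.

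The tubulins went different ways. Tuba1a, the main alpha-tubulin of growing neurons, lies on chromosome 15 (98949837 to 98953703, minus strand). It was at 1395, 1486 and 1594 CPM in Ash1l+/- and at 2102, 4519 and 1988 CPM in WT. Every Ash1l+/- library was below every WT library, and the gap to WT replicates 1 and 3 was larger than the spread within Ash1l+/-. In the 5 libraries Tuba1a fell to 0.73 of the WT level (log2 -0.45, SE 0.07, adjusted p = 3.75e-04), and with the trends removed to 0.809 (log2 -0.31, SE 0.07, adjusted p = 0.00988). With 6 libraries the fold change was 0.52 (log2 -0.94, SE 0.35, unadjusted p = 0.0341, adjusted p = 0.385, edgeR). All 5 fits that left out a further library from the 5 called it, at log2 fold changes from -0.50 to -0.41.

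Because reads of Tuba1a can match its relatives, the summed level of Tuba1a, Tuba1b and Tuba1c was taken as well. It was 2080.5, 2155 and 2256 CPM in Ash1l+/- and 3042, 7665 and 2876 CPM in WT. The sum in Ash1l+/- was 0.731 of the mean of WT replicates 1 and 3, close to the fold of Tuba1a alone. Tuba1b by itself had a log2 fold change of -0.44 (SE 0.07, adjusted p = 3.58e-04) and Tuba1c of -0.42 (SE 0.10, adjusted p = 0.00676) in the 5 libraries. A different split of reads among these 3 genes alone would leave their sum as it is. Reads that match further genes could still change it, as Tuba1a shared 50-base windows with 18 other genes in all. So could reads left out for having several matches.

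Tubb3, the class III beta-tubulin used as a marker of neurons, lies on chromosome 8 (123411424 to 123422015, plus strand). It was at 2579, 2491 and 2521 CPM in Ash1l+/- and at 2487, 2006 and 2636 CPM in WT. WT replicate 2 was the lowest library and the other 5 interleaved. Tubb3 had a log2 fold change of 0.091 with 6 libraries (SE 0.16) and of -0.016 with 5 (SE 0.07, adjusted p = 0.897), where 2 SE on either side ran from -0.15 to 0.12. Once the trends were removed from the 5 libraries it was 0.27, which passed (SE 0.07, adjusted p = 0.0197).

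Tubb2b, the class IIb isotype of developing neurons, lies on chromosome 13 (34126748 to 34130466, minus strand). It was at 249, 304 and 310.2 CPM in Ash1l+/- and at 324, 498 and 331 CPM in WT. The Ash1l+/- libraries were all below the WT libraries, but Tubb2b did not pass, with a log2 fold change of -0.42 in 6 libraries (SE 0.23, adjusted p = 0.389) and -0.19 in 5 (SE 0.08, adjusted p = 0.128). Summed with Tubb2a, whose reads it can share, the level was 744, 828 and 862 CPM in Ash1l+/- and 937, 1418 and 992 CPM in WT. That sum again kept all Ash1l+/- libraries below all WT libraries.

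Tubb6, the class V isotype that is found in many tissues, lies on chromosome 18 (67390717 to 67402748, plus strand). It was at 20.5, 20.3 and 20.7 CPM in Ash1l+/- and at 19.5, 14.6 and 18.9 CPM in WT. The Ash1l+/- libraries were above all WT libraries and varied by an SD of 0.213 CPM. Tubb6 had a log2 fold change of 0.22 with 6 libraries (SE 0.17, adjusted p = 0.482) and of 0.099 with 5 (SE 0.11, adjusted p = 0.57). It passed with the trends removed from the 5 libraries, at 0.35 (SE 0.10, adjusted p = 0.0404).

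Levels of different genes were set side by side per length, with the FPKM that the authors deposited. In the 5 libraries other than WT replicate 2 the order began the same way each time, running from high to low through Tubb3 (1359.9 to 1441 FPKM), Tuba1a (796 to 1191), Stmn3 (729 to 919) and Stmn2 (274 to 328). Tuba1a and Stmn3 overlapped in range across libraries, although Tuba1a was higher within each one. Tubb2b (112 to 147 FPKM), Gap43 (122 to 155) and Basp1 (112 to 125) came next and changed places between libraries, so their levels do not separate. Marcks followed at 23.2 to 25.9 FPKM. Tubb6 (at most 12.0 FPKM) and Stmn4 (6.46 to 16.0) were the lowest and traded places. In WT replicate 2 the order at the top was turned round, with Stmn3 at 4099 FPKM, Tuba1a at 2535 and Tubb3 at 1086.

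Shares within a family do not depend on the library's scale, but the GC and length trends were not removed from them. Stmn3 has 1136 bases and 57.3% GC, and Stmn2 has 5602 bases and 41.3% GC. With the trends removed from the 5 libraries their log2 fold changes were 0.011 and -0.059, and neither passed. Stmn3 made up 59.9%, 59.0% and 57.3% of the summed FPKM of the 4 stathmin genes in Ash1l+/- and 65.1%, 78.0% and 65.7% in WT. Stmn2 made up 23.8%, 25.2% and 25.8% in Ash1l+/- and 20.5%, 7.62% and 20.9% in WT. Stmn4 was the smallest, at 0.995 ± 0.216% in Ash1l+/- and 0.448 ± 0.0668% in WT (SD, n = 3). The shares of the 2 genotypes did not overlap, with or without WT replicate 2, and the exact permutation p over 6 libraries was 0.1, the smallest possible. In CPM, the groups did not overlap for 38.5% of all genes tested in 6 libraries either. Shares of 1 family depend on each other, so these are not separate results. In WT replicate 2 the shares of Stmn2 and Stmn4 were the lowest although their levels were the highest, beside the share of 78.0% that Stmn3 held there.

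Tubb3 made up 48.7 ± 1.07% of the summed FPKM of 7 beta-tubulin genes in Ash1l+/- and 39.6 ± 10.2% in WT (SD, n = 3), without overlap (exact permutation p = 0.1). A higher share is not by itself a higher level. In the 5 libraries the level of Tubb3 had a log2 fold change of -0.016, which did not pass, and of 0.27, which passed, with the trends removed. Tubb2b held 4.51 ± 0.506% in Ash1l+/- and 5.03 ± 0.508% in WT, and its shares overlapped. Tubb6 held 0.42 ± 0.00252% in Ash1l+/- and 0.313 ± 0.0862% in WT. Among the alpha-tubulins Tuba1a held 64.5%, 66.6% and 68.0% in Ash1l+/- and 66.9%, 58.3% and 67.1% in WT (exact permutation p = 0.7). These shares overlapped with and without WT replicate 2. As the split of reads with Tuba1b, Tuba1c and Tubb2a is uncertain, so are the shares and FPKM ranks of Tuba1a and Tubb2b.

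**Figure D4:**
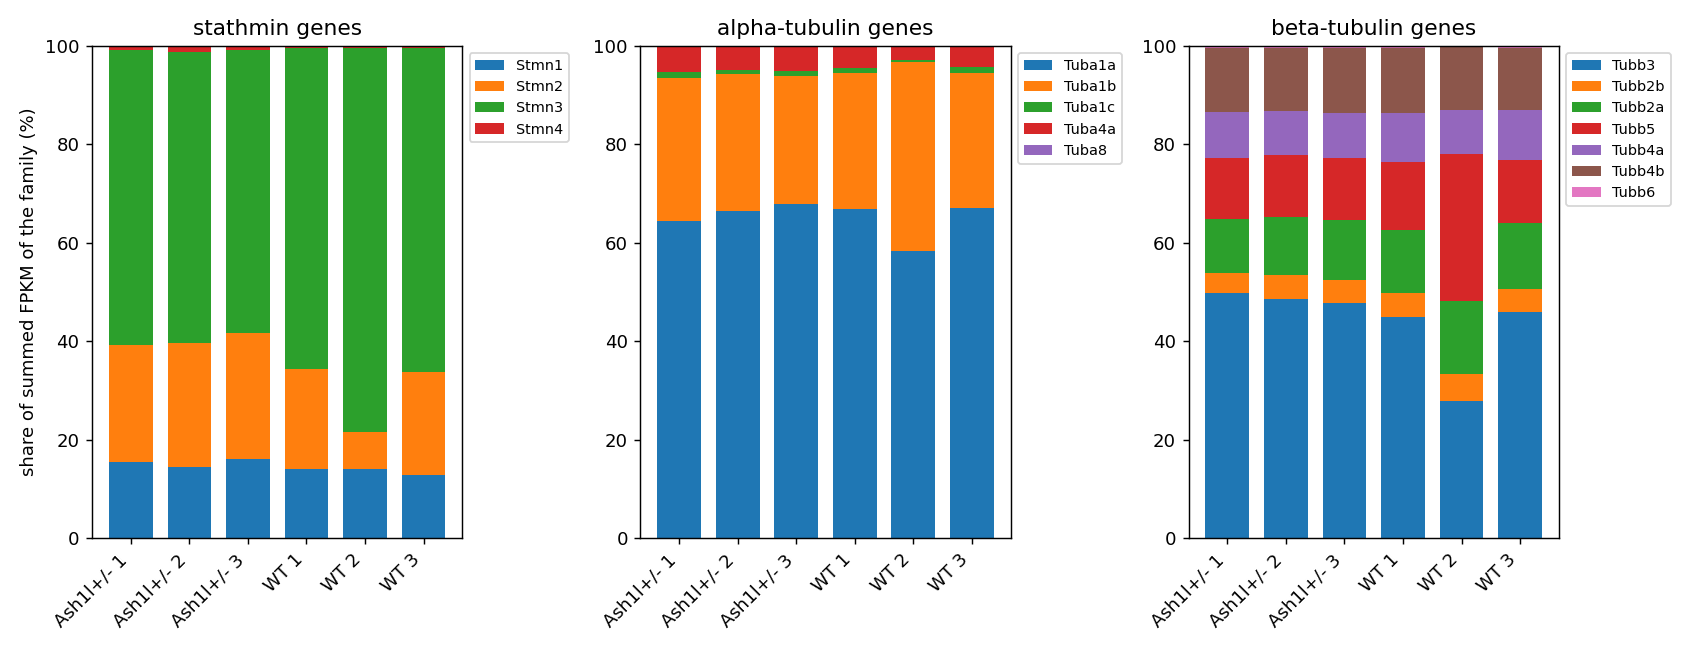
Share (%) of each gene in the summed FPKM of 4 stathmin, 5 alpha-tubulin and 7 beta-tubulin genes, as stacked bars per library with Ash1l+/- first. The share of Stmn3 is 57.3% to 59.9% in Ash1l+/- and 65.1% to 78.0% in WT, and the share of Tubb3 is 47.7% to 49.9% in Ash1l+/- and 27.8% to 46.0% in WT.

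Most members have short messages of high GC content. By the gene length in the deposited table, 9 of the 10 were shorter than the median tested protein-coding gene of 4471 bases, Stmn2 with 5602 bases being the exception. GC content of the longest transcript was above the median of 49.8% in 7 members, and over all 10 it ran from 41.3% in Stmn2 to 57.9% in Tubb3. Over 14128 protein-coding genes, the difference of WT replicate 2 from the other WT libraries followed length with a Spearman rho of -0.47, and that of Ash1l+/- from WT replicates 1 and 3 followed GC content with a rho of -0.62. Against the other WT libraries, WT replicate 2 was higher in 7 members and lower in Basp1, Tubb6 and Tubb3. For Stmn3 this log2 difference was 2.21 before the trends were removed and 0.31 after it. For Tubb3 it was -0.35 before the removal and -1.86 after it. The removal left WT replicate 2 farther from the other WT libraries in 6 members (Gap43, Basp1, Marcks, Stmn2, Tubb6 and Tubb3) and closer in 4.

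Genes with the most similar profile were sought among 9772 protein-coding genes of at least 10 CPM, by the root mean square difference of centred log2 CPM over the 6 libraries. The nearest was Entpd3, an ectonucleotidase, to Basp1, at 0.011 on the log2 scale, followed by Nsf, a factor of membrane fusion, at 0.0228. Nbas and Recql lay nearest to Tubb6 at 0.0159 and 0.0222, Rab6b and C9orf72 to Tubb3 at 0.0253 and 0.0282, and Slc25a5 and Elp3 to Marcks at 0.0263 and 0.0378. Eapp and Actr10 lay nearest to Stmn2, Ufc1 and Rpl10a to Stmn3, Rbm6 and Slc30a1 to Gap43, Zdhhc1 and Dnttip1 to Tuba1a, and Dapk2 and Glipr2 to Tubb2b, at differences between 0.0334 and 0.061. Stmn4 had no near neighbour: the closest, Lgals3 and Uchl3, differed by 0.212 and 0.232. These 6 libraries share WT replicate 2, whose distance from the rest weighs heavily in such profiles.

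The rest of the growth cone machinery was followed through 7 lists with 102 genes, of which 101 were tested. With all 6 libraries edgeR called 0 of them, and DESeq2 and limma-voom called 0 as well. By edgeR 12 of the 101 had an unadjusted p below 0.05, a share near that over all genes (1702 of 16032). In the 5 libraries 17 rose and 19 fell, 35.6% of the listed genes against a background of 19.8% (9.39% higher and 10.4% lower). Their median log2 fold change was 0.0096. Removal of the trends left 6 that rose and 6 that fell, 11.9% against 6.98% (2.6% higher and 4.38% lower), at a median of 0.029. Of the genes called, 8 were shared in direction between these fits, 22.2% of the 36 and 66.7% of the 12.

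Among the closest relatives of the members all calls in the 5 libraries were falls. Of 10 other stathmin and tubulin genes tested, 7 fell, 0 rose and 3 did not pass, against 10.4% lower and 9.39% higher over all genes. Their median log2 fold change was -0.27, against 0.00 over all genes. Tuba1b and Tuba1c are given above, and Tubg1, the gamma-tubulin that nucleates microtubules, fell by 0.29 (SE 0.08, adjusted p = 0.0221). Tuba1b was the 1 call left in this list with the trends removed (log2 -0.24, SE 0.06, adjusted p = 0.0165), against 4.38% lower over all genes. Stmn1, the cytosolic stathmin, did not pass, at 353, 350 and 382 CPM in Ash1l+/- and 352, 1404 and 340.5 CPM in WT.

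Of 21 microtubule-associated proteins tested, 7 rose and 1 fell in the 5 libraries, against 9.39% higher and 10.4% lower over all genes. Their median log2 fold change was 0.12. With the trends removed 2 rose and 1 fell, against 2.6% higher and 4.38% lower over all genes. Map2, a dendritic microtubule-binding protein, was at 179, 186 and 176 CPM in Ash1l+/- and at 124, 28.2 and 129.7 CPM in WT, a log2 fold change of 0.51 (SE 0.07, adjusted p = 1.87e-04). Map1b, which is abundant in growing axons, rose by 0.40 (SE 0.07, adjusted p = 6.28e-04) and Clip1, a protein of microtubule plus ends, by 0.30 (SE 0.08, adjusted p = 0.0151). Map1s, a short relative of Map1b, fell by 0.70 (adjusted p = 1.53e-04). After the trends were removed Map2 (0.28, adjusted p = 0.0102) and Map7d2 (0.23, adjusted p = 0.0371) were higher, Map1s stayed lower at -0.39 (adjusted p = 0.00595), and Map1b missed the threshold (0.17, adjusted p = 0.0982).

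Of 13 other membrane-bound growth-associated genes, 3 rose and 1 fell in the 5 libraries, against 9.39% higher and 10.4% lower over all genes. Their median log2 fold change was 0.075. Plppr4 and Plppr3, both plasticity-related membrane proteins, went opposite ways. Plppr4 was at 8.47, 8.91 and 9.24 CPM in Ash1l+/- and at 5.78, 6.20 and 5.75 CPM in WT (log2 0.62, SE 0.16, adjusted p = 0.0108). Plppr3 was at 12.8, 10.8 and 10.9 CPM in Ash1l+/- and at 22.2, 22.8 and 19.1 CPM in WT (log2 -0.84, SE 0.13, adjusted p = 3.11e-04). In both, WT replicate 2 lay with the other WT libraries, and with all 6 libraries the log2 fold changes were 0.59 and -0.89, each at an adjusted p of 0.385. Gpm6b, a tetraspan relative of myelin proteolipid protein, rose by 0.36 (adjusted p = 0.00271) and Cdh2, which encodes N-cadherin, by 0.31 (adjusted p = 0.0208). Plppr3 was the 1 call left with the trends removed (log2 -0.52, adjusted p = 0.00775), against 4.38% lower over all genes.

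Among 22 genes of actin and its regulators 6 fell and 1 rose in the 5 libraries, against 10.4% lower and 9.39% higher over all genes. Their median log2 fold change was -0.12. Coro1a, an actin-binding coronin, was at 85.2, 85.9 and 84.7 CPM in Ash1l+/- and at 143, 464 and 129 CPM in WT (log2 -0.67, SE 0.08, adjusted p = 1.78e-05). Coro1a is also abundant in leukocytes, and the summed immune cell markers were at 20.2 to 22.1 CPM in Ash1l+/- against 24.7, 22.4 and 23.8 CPM in WT, whose part in the result was not tested. Vasp and Pfn1, which promote actin filament growth, had log2 fold changes of -0.43 and -0.42 (adjusted p = 0.00112 and 7.90e-04), and Actg1, a cytoplasmic actin, of -0.39 (adjusted p = 0.00123). Enah, a relative of Vasp, rose by 0.24 (adjusted p = 0.0272). After removal of the trends 2 of the 22 fell and 2 rose, against 4.38% lower and 2.6% higher over all genes. Coro1a (-0.38, adjusted p = 0.00148) and Actg1 (-0.26, adjusted p = 0.0123) were still lower. The actin monomer-binding Tmsb10 (0.29, adjusted p = 0.0109) and the Vasp relative Evl (0.32, adjusted p = 0.0128) were then higher, and Enah, at -0.078, did not pass.

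The remaining lists cover motors, tubulin enzymes and collapsin response mediators. They are read against 19.8% of all genes called in the 5 libraries (9.39% higher and 10.4% lower). Calls among the tubulin enzymes and the collapsin response mediators lay near that background. With the trends removed the background was 6.98% (2.6% higher and 4.38% lower). Of 12 motor genes 4 rose and 1 fell in the 5 libraries, at a median log2 fold change of 0.088. Kif5b, Kif3a and Kif5c, kinesin motor subunits, rose by log2 fold changes of 0.35, 0.31 and 0.23, and Klc2, a kinesin light chain, fell by 0.30. Of these 4 genes Kif3a still passed with the trends removed (0.26, adjusted p = 0.0378). Of 18 tubulin folding, modifying and severing enzymes 2 rose, Tbce at 0.36 and Ttll7 at 0.25, and 2 fell, Tpgs1 among them at -0.49. Their list had a median of 0.068. Tbce, Ttll7 and Tpgs1 did not pass with the trends removed, when Vash1, a tubulin carboxypeptidase, was higher (0.58, adjusted p = 9.27e-04) and Tbcd, a tubulin cofactor, lower (-0.32, adjusted p = 0.00705). Fignl1, a relative of microtubule-severing enzymes, had the second smallest p of its list with 6 libraries (log2 0.80, unadjusted p = 0.0448, adjusted p = 0.385, edgeR). Of 5 collapsin response mediators, with a median of -0.16, 1 fell, Dpysl4 at -0.37 (adjusted p = 0.0455), and with the trends removed it did not pass (adjusted p = 0.273). Crmp1 did not pass in the 5 libraries (-0.19, adjusted p = 0.0817).

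**Figure D5:**
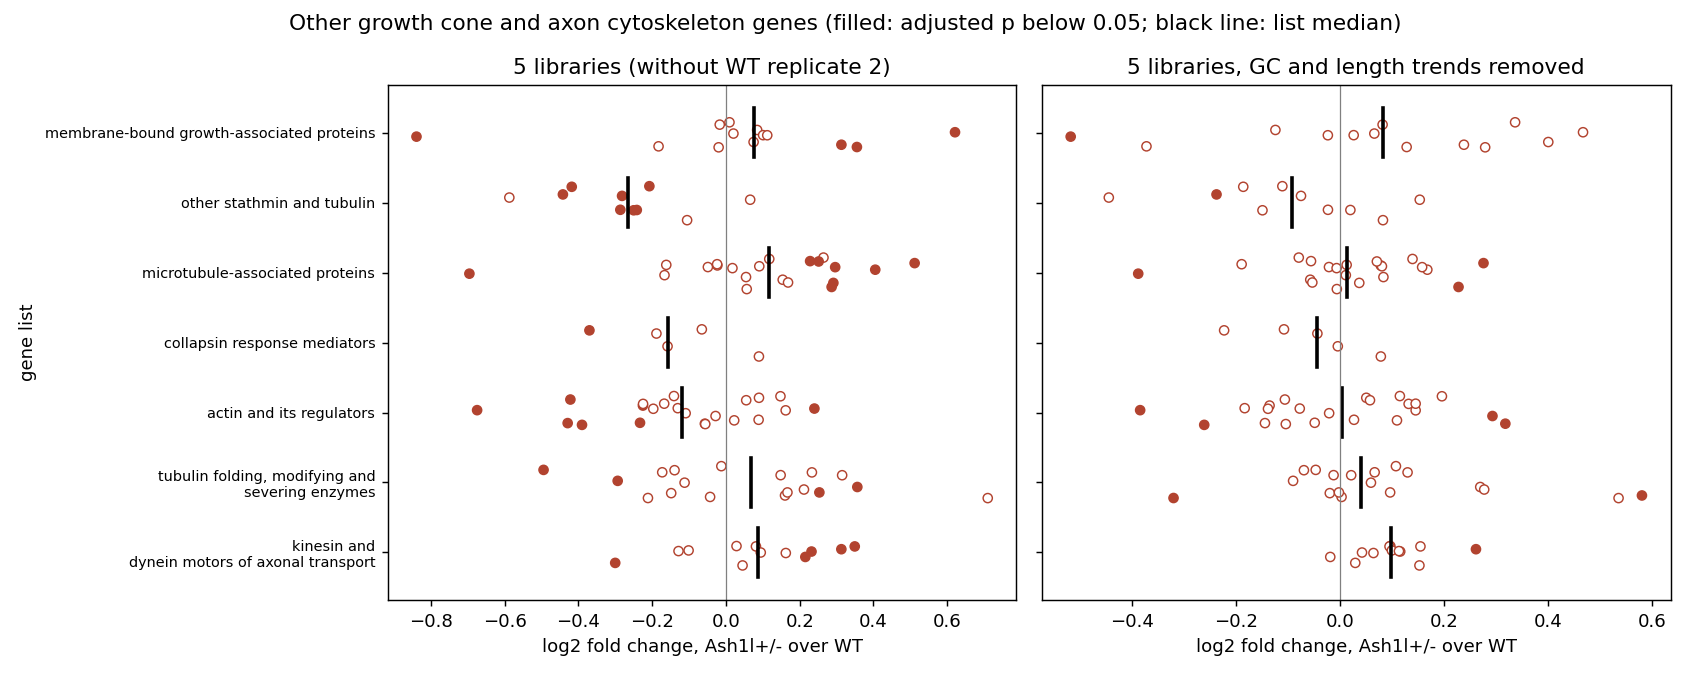
Log2 fold change of Ash1l+/- over WT (x axis) of each listed gene, by list, in the 5 libraries without WT replicate 2 (left) and with GC and length trends removed (right), with filled points where the adjusted p was below 0.05 and a black line at each list's median. The list of other stathmins and tubulins has 7 filled points on the left, all below 0, and 1 on the right. Over all genes 19.8% were called in the left fit and 6.98% in the right.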

How the data were processed

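Per the labels' protocols, RNA of frozen dorsal root ganglia was isolated with Trizol, and a NEBNext Ultra RNA kit was used for the libraries. The authors deposited raw read counts per gene and FPKM for the same genes. The submitters' processing notes name HISAT2 2.0.5, featureCounts 1.5.0-p3 and GRCm38 (mm10), without parameters. The deposited FPKM equal the counts divided by gene length and by 1 effective size per library, which was 0.75 of the count total in WT replicate 2 and 1.02 to 1.04 of it in the others.

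Genes kept by filterByExpr were tested with edgeR 4.0.16 (R 4.3.3), by TMM factors, genotype as the term and Benjamini-Hochberg adjustment over all genes tested. Each SE was taken as the size of the log2 fold change over the root of its F statistic. Trends were removed with loess curves (span 0.3) of each library's log2 CPM on gene length and transcript GC content, entered as offsets. DESeq2 1.42.0 and limma 3.58.1, on counts and on log2 of the deposited FPKM plus 1 or 0.1, were alternatives. Steps were tested on simulated counts. No libraries agreed within sampling noise (lowest chi-square per degree of freedom 3.86). Listed genes named are the 2 with the smallest p per list in 6 libraries and up to 3 called rises and 3 called falls per list in 5; Tubb2a, Stmn1, Map7d2, Tmsb10, Evl, Vash1, Tbcd, Atf3 and Sprr1a are named outside that rule, with their values known. The 10 members and all lists were chosen with earlier results of these data known. A gene named by that rule and some tubulin sequences are not reported here.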

Additional observations from a re-analysis of the deposited data

How the results depend on the processing

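The counts of calls depended on WT replicate 2. With 6 libraries, 0 members, 0 listed genes and 0 of all genes were called with RLE, upper-quartile or total scaling, no filter, a CPM filter, limma-voom, either FPKM scale, the trends removed, or the replicate number as a block; DESeq2 called 3 of all genes. Same-numbered libraries did not deviate together (correlations -0.01, -0.04 and 0.05, with 2 of 6 libraries correlating best with their own number), so the block was not used as pairing. Leaving out 1 library gave 0 to 3 members, 0 to 36 listed genes and 0 to 3252 genes, the higher ends without WT replicate 2. voom with quality weights gave 3, 38 and 4179, and removing the trends without WT replicate 2 gave 5, 12 and 1144. From the 5 libraries, leaving out another gave 2 to 5 members, 12 to 42 listed genes and 796 to 4198 genes. The lowest counts of listed genes were 12 without WT replicate 1, 17 without Ash1l+/- replicate 2 and 19 without Ash1l+/- replicate 3, and 23 were called without WT replicate 3; over all genes 1855 were called without Ash1l+/- replicate 2 and 2120 without Ash1l+/- replicate 3. The fits that leave out a library besides WT replicate 2 were chosen after seeing the data, and with 1 WT library left it is taken to vary as Ash1l+/- does.

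Log2 fold changes that turned sign with 6 libraries were -0.045 for Basp1 and -0.014 for Tubb3 with quality weights, and 0.020, 0.13 and 0.18 for Stmn2 with upper-quartile factors, library totals and quality weights. Library totals moved the median of all genes by 0.14. Leaving out 1 library gave -0.043 to 0.20 for Gap43, -0.043 to 0.21 for Basp1, -0.15 to 0.15 for Stmn2, -0.078 to 0.92 for Stmn4 and -0.016 to 0.18 for Tubb3. In the 5 libraries, removing the trends gave 0.20 for Basp1, -0.059 for Stmn2, 0.011 for Stmn3 and 0.27 for Tubb3, and leaving out another library gave -0.06 to 0.021 for Tubb3. Without Ash1l+/- replicate 1 as well, Gap43 passed (0.25, adjusted p = 0.0184) and so did Stmn2 (0.20, adjusted p = 0.0359). The cause of these turns was not tested. Stmn4 and Tubb6 have the fewest reads of the members, and 3 libraries a group limit all p-values.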
